A study of Homo sapiens with 6 samples.

Results

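The ligands, receptors, SMAD proteins and negative regulators of transforming growth factor-β (TGF-β) signaling were examined in the chromatin accessibility maps of MDA-MB-231 cells with and without SAP30. The set holds 9 genes out of 20149 protein-coding genes of the annotation, namely TGFB1, TGFB2, TGFBR1, TGFBR2, SMAD2, SMAD3, SMAD4, SMAD7 and SKIL. They were chosen by name, and accessible sites were taken from 50 kb upstream of each gene to its end. These regions add up to 1120 kb of GRCh37 (hg19) and hold 56 of 56419 accessible loci.

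MDA-MB-231 is an established human triple-negative breast cancer line with mesenchymal features. Accessibility was mapped by ATAC-seq, in which a transposase inserts adapters into open DNA, in Parental cells (3 libraries) and in SAP30-KO1 cells (3 libraries). SAP30-KO1 cells carry a CRISPR/Cas9 knockout of SAP30, a subunit of the SIN3 corepressor complex, and were expanded from several selected knockout cells that were mixed, so the group is 1 line and not a series of independent clones. Both groups were kept in the same serum-containing medium, and the labels name no added TGF-β. Each library is a list of 29762 to 40650 peak summits with a −log10 q value. That score was turned into a percentile rank within its own list, where 100 is the strongest summit and 0 stands for no summit. The lists give no read counts, so the sequencing depth is unknown. As markers of the line, the promoters of VIM and CD44 had a summit in all 6 libraries, KRT18 in 3, the hormone receptor genes ESR1 and PGR in 1 each, and CDH1 and the leukocyte gene PTPRC in none. The summit lists do not show whether SAP30 itself was lost.

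TGF-β ligands are secreted in a latent form and, once released, bring the receptors TGFBR2 and TGFBR1 together at the cell surface. TGFBR2 is a constitutively active kinase that phosphorylates TGFBR1, which in turn phosphorylates SMAD2 and SMAD3. These join SMAD4, enter the nucleus and bind short GTCT or CAGA elements, usually next to other factors such as AP-1. SMAD7, which blocks the receptors, and SKIL (SnoN), which represses SMAD complexes, are themselves induced by the pathway and close a negative feedback loop. In breast cancer the pathway is known for restraining growth early and for promoting migration and metastasis late.

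First, promoters were compared, taking the strongest summit within 1 kb of any annotated start site of a gene. Promoter accessibility differed widely between the members, and no difference between the groups exceeded the spread of the libraries. TGFBR2, TGFBR1, SKIL and TGFB2 had a promoter summit in all 6 libraries, SMAD2, SMAD3, SMAD4 and SMAD7 had one in 3 to 5 libraries, and TGFB1 had one in none. For none of the 8 genes with a promoter summit did the ranks of the groups separate without overlap, whereas 4.58% of 12568 genes with a promoter summit had all SAP30-KO1 ranks below all Parental ranks and 6.01% had them above. Separation needs a summit in at least 3 libraries, which all 8 members and 10497 of the 12568 genes had. In bulk cells, a site that is open in more cells cannot be told apart from a site that is more open in each cell. The labels do not say whether libraries came from separate cultures, so p-values measure the spread between these libraries, which may be technical.

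**Figure D1:**
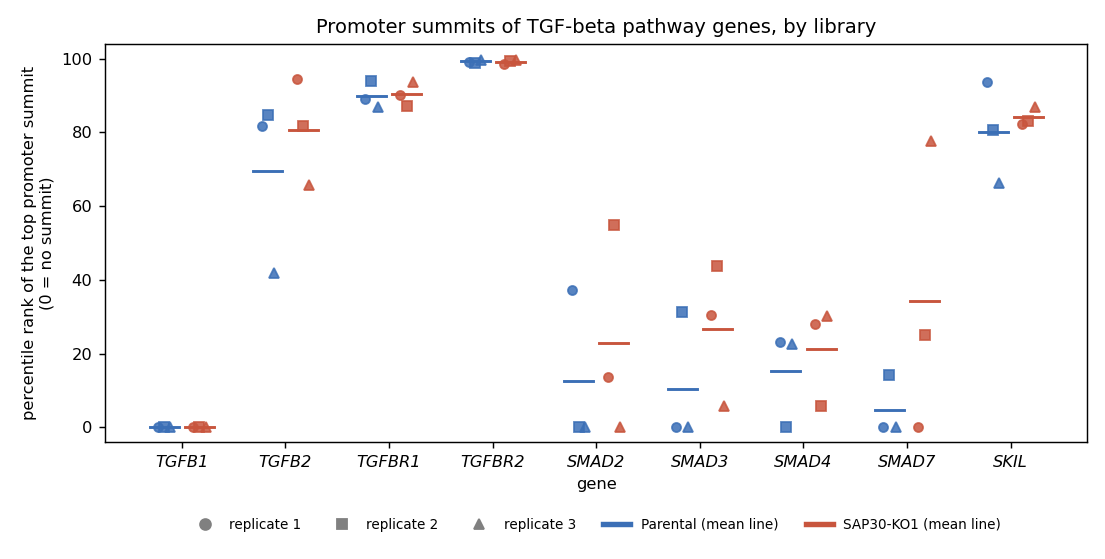
Percentile rank of the strongest promoter summit (y axis, 0 to 100, 0 for no summit) for each of the 9 genes (x axis) in 3 Parental libraries (blue) and 3 SAP30-KO1 libraries (red), with the replicate shown by the symbol and the group mean by a line. The points of TGFBR2 lie between 98.7 and 99.7 in all 6 libraries, those of TGFB1 lie at 0, and the groups overlap for every gene with a summit.

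Among the receptors, TGFBR2 had the most accessible promoter of the set. Its ranks were 99.1, 98.9 and 99.7 in Parental cells and 98.7, 99.3 and 99.7 in SAP30-KO1 cells. All 6 libraries therefore placed this promoter near the top of their list, and the groups overlapped. The mean rank of 99.3 was above that of 99.4% of genes with a promoter summit. The difference, SAP30-KO1 minus Parental, was −0.058 points (two-sided exact permutation p = 0.9), and the range over the 6 libraries was 1.08 points against a median range of 33.8 points for the 6964 genes with a promoter summit in all 6 libraries. The summits lay at −206 to −47 bp from the start site, a span of 159 bp, with scores of 21.3 to 31.5. The DNA just upstream of the first exon, which holds all of these summits but that of Parental replicate 2, is shown on the plus strand of GRCh37. It holds no whole match to a motif searched here, and an AP-1 match of the full window is cut off where the first exon begins.
TGFBR2 promoter, chr3:30647893-30648092: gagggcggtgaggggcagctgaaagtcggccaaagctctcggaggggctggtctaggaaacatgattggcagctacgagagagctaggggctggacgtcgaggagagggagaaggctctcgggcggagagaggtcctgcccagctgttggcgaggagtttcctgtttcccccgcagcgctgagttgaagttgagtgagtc

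TGFBR1, the kinase that receives the signal from TGFBR2, was ranked next. The ranks of its promoter were 89.1, 93.9 and 86.8 in Parental cells and 90.2, 87.2 and 93.7 in SAP30-KO1 cells. High and low values were found in both groups, and the means of 89.9 ± 3.64 and 90.4 ± 3.24 (SD, n = 3 each) differed by 0.431 points (two-sided exact permutation p = 0.8). The range of 7.14 points was again narrow. The 6 summits lay within 141 bp of each other. The sequence around their mean position, which holds all of these summits but that of SAP30-KO1 replicate 1, is GC-rich (79.1% G or C). It is shown on the plus strand with matches to the SMAD box CAGAC, on either strand, in capitals.
TGFBR1 promoter, chr9:101867070-101867270: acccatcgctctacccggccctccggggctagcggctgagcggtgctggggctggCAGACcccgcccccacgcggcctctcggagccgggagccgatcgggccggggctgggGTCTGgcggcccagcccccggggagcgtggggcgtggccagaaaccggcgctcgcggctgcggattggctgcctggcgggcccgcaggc

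The ligand genes were unlike each other. TGFB2 encodes TGF-β2, and its promoter had ranks of 81.7, 84.6 and 41.9 in Parental cells and 94.5, 81.6 and 65.8 in SAP30-KO1 cells. Replicate 3 of each group was the lowest of its group, and the difference of 11.3 points was smaller than the spread (two-sided exact permutation p = 0.7). Without Parental replicate 3 the difference was −2.50 points. The TGFB2 summits fell within 119 bp of each other, at −229 to −110 bp from the canonical start site, where an antisense gene, TGFB2-AS1, starts as well.

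TGFB1, which encodes TGF-β1, the ligand most often studied in cancer, had no promoter summit in any library. Its region held 12 summits in 5 loci over all 6 libraries, none of them found in more than 3 libraries. Of these loci, one lies at start sites of B9D2 and TMEM91, one at start sites of BCKDHA and EXOSC5, and a further pair in TGFB1 introns also lies in CCDC97. The locus at the EXOSC5 and BCKDHA start sites, 43.6 kb upstream, had the highest mean rank of the region, with 0, 6.11 and 0 in Parental cells and 0, 58.1 and 20.4 in SAP30-KO1 cells. The remaining one, 26.2 kb into the gene, had a summit in 2 SAP30-KO1 libraries and in no Parental library, with ranks of 48.5 and 12.3. A list of summits shows what passed a threshold, so the TGFB1 promoter may be open below it.

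The signal transducers had weak and irregular promoter summits. SMAD2, one of the receptor-regulated SMADs, had ranks of 37.2, 0 and 0 in Parental cells and 13.6, 54.9 and 0 in SAP30-KO1 cells. SMAD3, the other one, had 0, 31.4 and 0 in Parental cells and 30.5, 43.7 and 5.89 in SAP30-KO1 cells. SMAD4, the partner shared by all receptor-regulated SMADs, had 23.0, 0 and 22.6 in Parental cells and 28.0, 5.72 and 30.1 in SAP30-KO1 cells. For each of the 3 genes, values of the groups overlapped. SMAD3 had a promoter summit in 1 Parental library and in all 3 SAP30-KO1 libraries, which gave the larger difference, 16.2 points (two-sided exact permutation p = 0.3). The SMAD3 summits compared are not one element, as they span 63756 bp, the value of 30.5 in SAP30-KO1 replicate 1 came from a start site 62404 bp downstream of the canonical one, and that of SAP30-KO1 replicate 3 came from one upstream of it. At the canonical start site alone the SMAD3 ranks were 0, 31.4 and 0 against 6.50, 43.7 and 0.696. The SMAD3 difference was 7.72 points without SAP30-KO1 replicate 2, 26.7 points without SAP30-KO1 replicate 3, and 26.7 points with no overlap without Parental replicate 2. The SMAD4 groups did not overlap without SAP30-KO1 replicate 2 (13.8 points), while the sign turned for SMAD2 without SAP30-KO1 replicate 2 (−5.60 points) and for SMAD4 without Parental replicate 2 (−1.53 points). The separations that appeared under an omission, here and below, came from leaving out a library whose value had made the groups overlap. They are therefore no sign of a difference. Summits of SMAD2 lay within 332 bp and those of SMAD4 within 639 bp.

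The feedback genes SMAD7 and SKIL also differed from each other. The SKIL promoter had ranks of 93.8, 80.7 and 66.2 in Parental cells and 82.2, 83.2 and 86.8 in SAP30-KO1 cells. The SAP30-KO1 values sat inside the wider Parental range, with means of 84.1 ± 2.42 and 80.2 ± 13.8 (SD, n = 3 each; two-sided exact permutation p = 0.7). The difference of 3.85 points became −3.18 points without Parental replicate 3 and 10.6 points, with no overlap, without Parental replicate 1. The strongest summits of the 6 libraries lay 563 bp apart at most.

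SMAD7 had no summit within 1 kb of its canonical start site in any library. Its promoter ranks of 0, 14.04 and 0 in Parental cells and 0, 24.9 and 77.6 in SAP30-KO1 cells came from start sites of shorter transcripts, 7966 to 8080 bp downstream of the canonical one. The highest value, 77.6, was that of a single library, SAP30-KO1 replicate 3. The difference of 29.5 points was therefore within the spread (two-sided exact permutation p = 0.4). Without SAP30-KO1 replicate 1, the library with no summit, the difference was 46.6 points with no overlap. That library held the only SAP30-KO1 value within the Parental range, so its omission alone gives this separation. Without SAP30-KO1 replicate 3 it was 7.79 points.

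A fit across all promoters gave the same picture for the members. The limma fit on ranks was made for 10497 genes with a promoter summit in at least 3 libraries, 8 of them members. No member passed at an adjusted p under 0.05 (limma, Benjamini-Hochberg over all genes), their adjusted p-values ranged from 0.836 to 1, and 0 of 8 had an unadjusted p under 0.05 against 7.76% of all genes fitted. By mean rank, 7 of the 8 members were higher and 1 lower in SAP30-KO1 cells, with a median difference of 8.25 points, where 6672 of 12568 genes were higher and the median was 0.671 points. The fit called few genes in all, 0% of genes as lower and 0.00953% as higher. The precision differed between the members, as the standard error of the fitted difference was 4.29 points for TGFBR2, 8.09 for SKIL, 14.3 for TGFB2 and 20.2 for SMAD7.

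For each member with a promoter summit in every library, the gene with the most similar ranks over the 6 libraries was sought by Euclidean distance. TGFBR2 was nearest to ERP44 and INVS, which have identical ranks, at a distance of 0.504 points, TGFBR1 to ETF1 at 4.16, SKIL to ADCK1 at 6.79, and TGFB2 to HLA-DMA and an unnamed neighbour at 11.9.

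Next, all accessible loci of the 9 regions were compared. A locus is the merged window of summits extended by 250 bp on each side. Members held between 2 loci (SMAD2) and 16 loci (SMAD3), of which 14 lay at a start site of the member, 3 at a start site of another gene, 18 in introns and 21 upstream. Only 12 of the 56 loci (21.4%) had a summit in all 6 libraries, against 28.9% of all loci, and 16 (28.6%) were seen in 1 library, against 28.5%. Loci found in all 6 libraries were concentrated in TGFBR2 with 4, TGFB2 with 3 and SMAD3 with 2, while TGFB1, SMAD2 and SMAD4 had none.

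**Figure D2:**
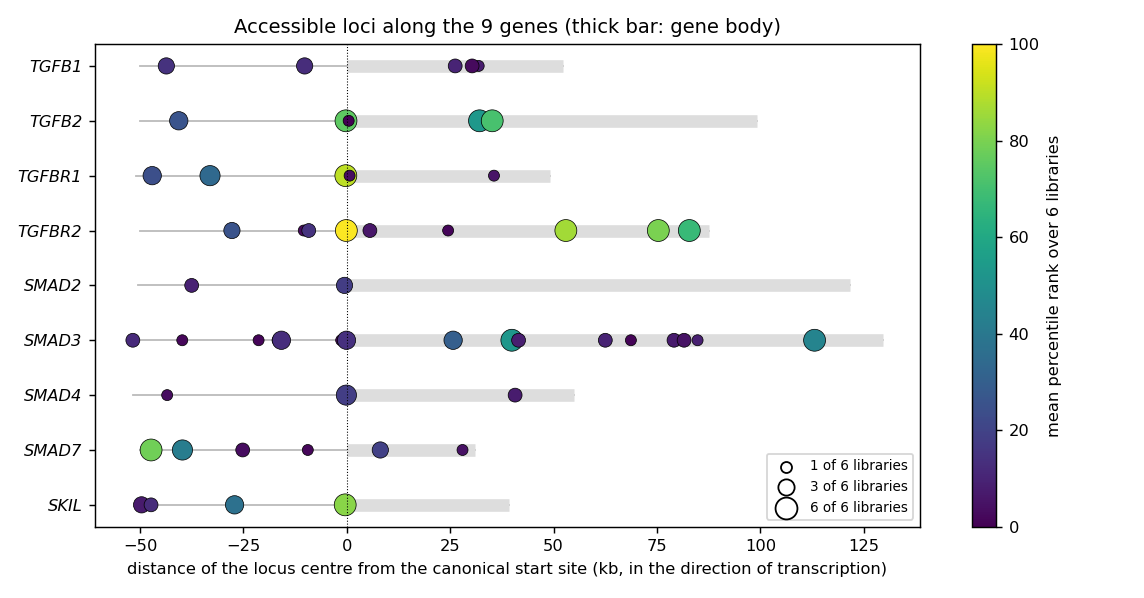
Loci along each gene (rows), placed by the distance of their centre from the canonical start site in kb in the direction of transcription (x axis), with the gene body as a thick bar. Point size gives the number of libraries with a summit and color the mean percentile rank over 6 libraries. TGFBR2 has its strongest locus at the start site (mean rank 99.3) and 3 further loci shared by all libraries inside the gene, whereas the strongest SMAD7 locus lies 47.3 kb upstream.

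One member locus had ranks of the groups that did not overlap. It lies 15.8 kb upstream of the SMAD3 canonical start site, at chr15:67341807-67342484 on GRCh37, inside a non-coding gene, ENSG00000259347. Its ranks were 10.0, 35.6 and 24.9 in Parental cells and 6.86, 0 and 0 in SAP30-KO1 cells. All 3 Parental libraries had a summit there, and the only SAP30-KO1 summit was weaker than each of them. The means were 23.5 ± 12.8 and 2.29 ± 3.96, a difference of −21.2 points (SD, n = 3 each; two-sided exact permutation p = 0.1, the smallest that 3 libraries against 3 allow). In the limma fit the adjusted p was 0.412. Leaving out a library cannot make groups overlap that are apart with all 6, so it was no check of this locus. Under a q limit of 0.0001 no member locus was lower without overlap. With the replicate number as a block, no member locus had an unadjusted p under 0.05. The locus carries 1 match to the AP-1 motif TGANTCA, in capitals in the plus strand sequence. It also holds 1 match to the TEAD motif GGAATG, left in lower case.
SMAD3 upstream locus, chr15:67342037-67342237: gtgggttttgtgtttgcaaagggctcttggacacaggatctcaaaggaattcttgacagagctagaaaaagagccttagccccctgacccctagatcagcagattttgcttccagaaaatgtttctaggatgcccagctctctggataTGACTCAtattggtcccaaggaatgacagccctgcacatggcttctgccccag

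This count, 1 of 56 loci lower (1.79%) and 0 higher, stands beside 4.26% of all loci lower and 5.86% higher. With all 6 libraries, a locus with a summit in fewer than 3 of them cannot separate the groups. At least 3 libraries had a summit at 27 of the 56 member loci and at 32892 of all 56419 loci, so the shares have unlike bases. No member locus had a summit in all libraries of one group and in none of the other, as 0.876% of all loci had in the Parental direction and 1.43% in the SAP30-KO1 direction. In the limma fit over 32892 loci with a summit in at least 3 libraries, 27 member loci were fitted. Of these, 1 had an unadjusted p under 0.05, beside 12.0% of all loci fitted. None had an adjusted p under 0.05, where 0.1% of loci passed as lower and 0.249% as higher. Leaving out SAP30-KO1 replicate 1, which has the shortest list, raised the count of higher loci from 0 to 9 of 55 (16.4%), beside 13.0% of all loci under the same omission. Leaving out SAP30-KO1 replicate 2, which has the longest list, raised the lower count to 4 of 53 (7.55%), beside 8.62% of all loci. Groups separate more easily under any such omission, as 5.49 to 9.28% of all loci were then lower and 7.88 to 13.0% higher. By mean rank, 35 member loci were higher and 21 lower in SAP30-KO1 cells, where 28857 of all loci were higher and 27561 lower, and the median difference was 3.69 points against 0.280 points. It was −0.095 points for the 12 loci in all 6 libraries, of which 5 were higher and 7 lower in SAP30-KO1 cells, against 0.171 points for all loci of that kind.

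**Figure D3:**
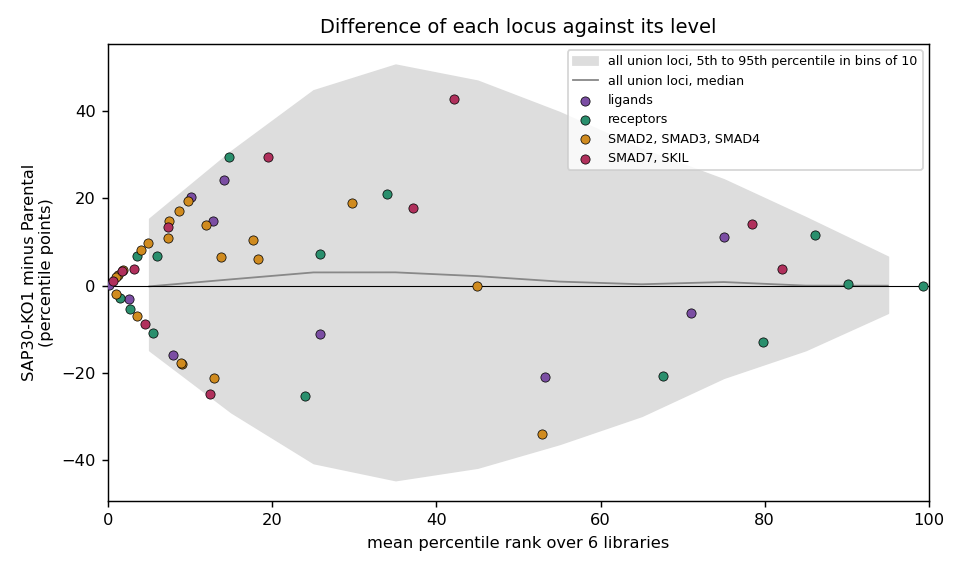
SAP30-KO1 minus Parental difference of each member locus in percentile points (y axis) against its mean rank over 6 libraries (x axis), colored by the role of the gene, with the median (line) and the 5th to 95th percentile (grey) of all union loci in bins of 10. The widest differences, +42.8 points at a SMAD7 upstream locus and −33.9 points at a SMAD3 intronic locus, lie inside the band of their bin, and 5 of 56 loci lie outside theirs, all with a mean rank under 10.

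The strongest sites away from the canonical start sites were in TGFBR2. A locus in an intron, 53.0 kb from the start site, had ranks of 92.6, 73.3 and 75.2 in Parental cells and 82.1, 98.4 and 95.1 in SAP30-KO1 cells. A locus at 75.3 kb, beside the start site of a shorter transcript, had 76.0, 96.3 and 86.6 in Parental cells and 75.1, 80.9 and 64.1 in SAP30-KO1 cells. The groups overlapped at both, with differences of opposite sign, 11.5 points and −13.0 points (two-sided exact permutation p = 0.2 each). They no longer overlapped at the first without Parental replicate 1 or SAP30-KO1 replicate 1, and at the second without Parental replicate 1 or SAP30-KO1 replicate 2. Another, at 82.8 kb, had 83.6, 75.6 and 74.4 against 38.3, 52.4 and 81.1, so that only SAP30-KO1 replicate 3 reached the Parental range. These loci are shown on the plus strand because they are the ones found in every library, with AP-1 motifs in capitals. The one at 82.8 kb holds none of the motifs searched and is not printed.
TGFBR2 locus at 53.0 kb, chr3:30700969-30701169: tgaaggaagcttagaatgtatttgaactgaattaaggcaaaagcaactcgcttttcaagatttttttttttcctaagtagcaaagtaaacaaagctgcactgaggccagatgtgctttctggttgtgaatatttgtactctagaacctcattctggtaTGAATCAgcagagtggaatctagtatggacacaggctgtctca
TGFBR2 locus at 75.3 kb, chr3:30723328-30723528: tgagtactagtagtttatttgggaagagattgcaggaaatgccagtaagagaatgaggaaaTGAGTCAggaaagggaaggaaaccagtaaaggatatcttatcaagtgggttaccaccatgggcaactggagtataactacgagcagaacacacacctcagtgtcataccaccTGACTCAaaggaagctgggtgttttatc

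TGFB2 carried a pair of intronic loci in all 6 libraries. The one at 35.2 kb had ranks of 60.6, 85.8 and 76.0 in Parental cells and 84.8, 83.5 and 35.1 in SAP30-KO1 cells. The one at 32.1 kb had ranks of 71.8, 70.9 and 48.3 in Parental cells and 36.4, 14.7 and 77.5 in SAP30-KO1 cells. In both, SAP30-KO1 replicate 3 departed from the other SAP30-KO1 libraries, and in opposite directions. The difference at 32.1 kb, −20.8 points, did not exceed the spread (two-sided exact permutation p = 0.4). The groups did not overlap there without SAP30-KO1 replicate 3, the only SAP30-KO1 library above any Parental one. The locus at 35.2 kb holds none of the motifs searched and is not printed. The sequence of the locus at 32.1 kb holds a SMAD box and an AP-1 motif, both in capitals.
TGFB2 locus at 32.1 kb, chr1:218550673-218550873: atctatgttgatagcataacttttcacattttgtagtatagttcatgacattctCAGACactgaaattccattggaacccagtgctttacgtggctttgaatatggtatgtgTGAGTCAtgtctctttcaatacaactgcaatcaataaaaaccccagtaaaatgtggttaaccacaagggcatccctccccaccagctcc

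Within SMAD3, the strongest locus lay in an intron 39.9 kb from the canonical start site. Its ranks were 79.1, 75.0 and 55.1 in Parental cells and 2.90, 57.4 and 47.4 in SAP30-KO1 cells. SAP30-KO1 replicate 1 was far below the other libraries and SAP30-KO1 replicate 2 lay above the lowest Parental library. The difference of −33.9 points did not pass (two-sided exact permutation p = 0.2, and limma adjusted p = 0.503). The groups did not overlap without Parental replicate 3 or without SAP30-KO1 replicate 2, the only libraries whose values overlapped. The other SMAD3 locus in all libraries, at 113.1 kb, had 66.4, 41.0 and 27.6 against 36.0, 59.2 and 39.4, with nearly equal means of 45.0 and 44.9. Neither of these SMAD3 loci holds an AP-1 match, and neither is printed.

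The SMAD7 gene had its most accessible DNA far upstream. A locus 47.3 kb upstream had ranks of 89.0, 47.4 and 77.9 in Parental cells and 92.1, 75.5 and 88.9 in SAP30-KO1 cells. It was open in every library, and the groups overlapped (difference 14.04 points, two-sided exact permutation p = 0.5). A second locus, 39.7 kb upstream, had 16.7, 45.6 and 0 in Parental cells and 28.3, 79.4 and 83.1 in SAP30-KO1 cells. Here the means were 20.8 ± 23.1 and 63.6 ± 30.6 (SD, n = 3 each), a difference of 42.8 points that did not pass (two-sided exact permutation p = 0.2, and limma adjusted p = 0.465). Without Parental replicate 2 or without SAP30-KO1 replicate 1 its groups did not overlap. The stronger of the SMAD7 loci is shown on the minus strand, on which SMAD7 is transcribed, with the AP-1 motif in capitals. Its 1 match to the TEAD motif GGAATG, searched on both strands, is left in lower case.
SMAD7 locus 47.3 kb upstream, chr18:46524550-46524750: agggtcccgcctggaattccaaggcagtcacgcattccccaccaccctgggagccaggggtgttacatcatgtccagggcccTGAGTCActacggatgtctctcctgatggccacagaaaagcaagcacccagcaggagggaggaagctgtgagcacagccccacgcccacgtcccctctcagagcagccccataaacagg

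The remaining genes had weaker distal sites. The best of TGFBR1 lay 33.1 kb upstream, with 0, 23.0 and 47.4 in Parental cells and 59.6, 39.1 and 34.6 in SAP30-KO1 cells. The best of SKIL lay 27.1 kb upstream, with 4.20, 80.5 and 0 in Parental cells and 0, 79.0 and 58.8 in SAP30-KO1 cells. In both regions, high and low values occurred within one group, and the TGFBR1 locus separated the groups only without Parental replicate 3. SMAD2 had a single distal locus, 37.5 kb upstream, with ranks of 33.4 and 20.7 in 2 Parental libraries and no summit in the other 4 libraries. SMAD4 had an intronic locus at 40.7 kb with ranks of 26.9 and 17.7 in 2 SAP30-KO1 libraries and no summit elsewhere. Their groups did not overlap without Parental replicate 2 and without SAP30-KO1 replicate 2, respectively.

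**Figure D4:**
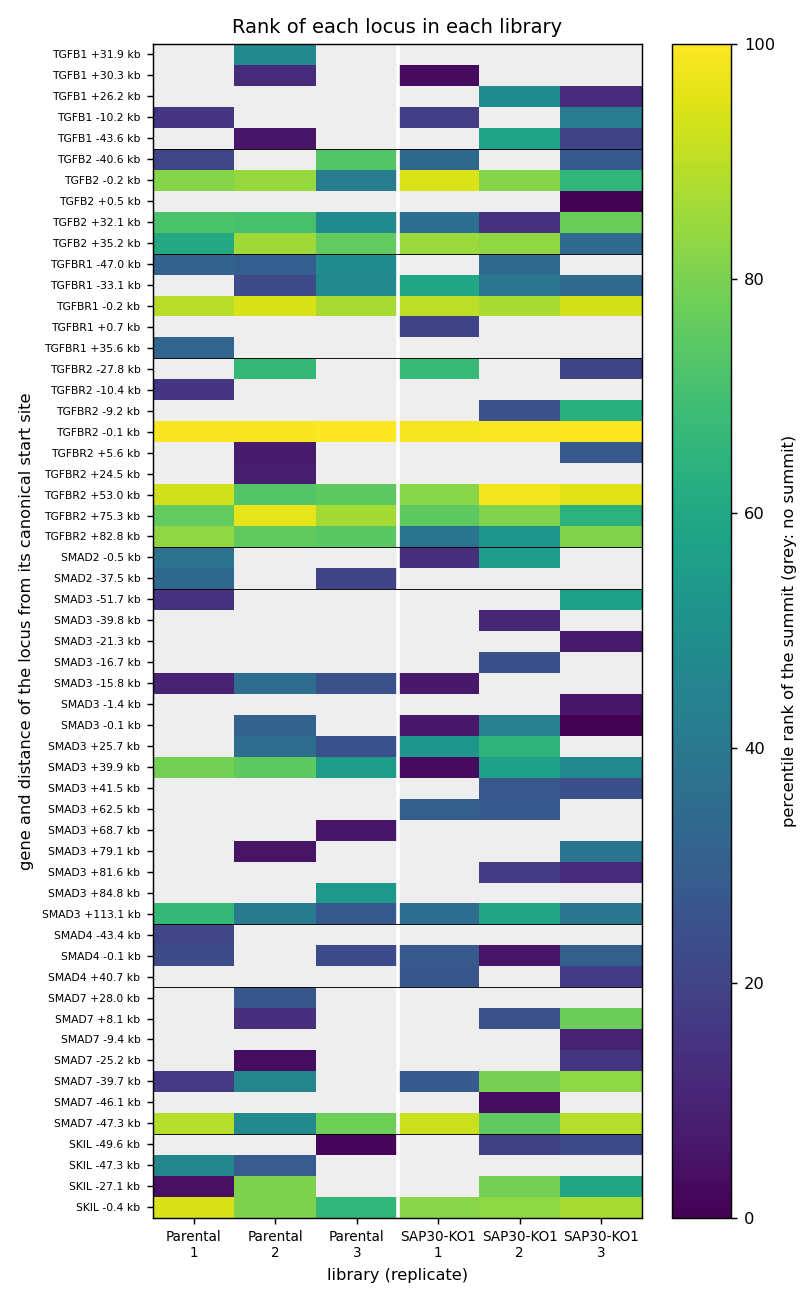
Percentile rank (color, grey for no summit) of each of the 56 member loci (rows, labelled by gene and distance from the canonical start site in kb) in the 6 libraries (columns, Parental left of the white line and SAP30-KO1 right). Rows filled in all 6 columns are few, 12 of 56, and no row is filled on one side and empty on the other.

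The number of summits in each region was then compared, as summits per 10000 summits of a list. SMAD3 was the only member whose groups did not overlap. Its region held 4, 6 and 6 summits in Parental libraries and 6, 9 and 8 in SAP30-KO1 libraries, or 1.62 ± 0.464 and 2.19 ± 0.161 per 10000 (SD, n = 3 each; two-sided exact permutation p = 0.1, the smallest possible). The difference of 0.573 per 10000 lost its separation when only summits with a q value of 0.0001 or less were kept (0.273) and when lists were cut to equal length (0.336). It was 0.310 without Parental replicate 1, and the cause was not tested. Its sign is opposite to that of the upstream SMAD3 locus described above. This was 1 of 9 members (11.1%). Of the 17669 gene regions with a summit in any library, 4.73% were higher and 4.6% lower in SAP30-KO1 cells. For the other 8 genes the counts overlapped, from 0, 1 or 2 summits per library at SMAD2 to 4, 5 or 7 at TGFBR2. Taken as one set, the 9 regions held 28, 30 and 22 summits in Parental libraries and 28, 34 and 36 in SAP30-KO1 libraries, which is 0.0801% ± 0.0168 and 0.0943% ± 0.0107 of the lists (SD, n = 3 each), with overlapping groups. Relative to region length, SMAD7, TGFBR2 and SMAD3 had 4.11, 4.0 and 3.58 summits per 100 kb in the average library. The median for protein-coding genes was 1.65, and SMAD2 had 0.484.

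Motifs were counted in the 100 bp on either side of the centre of each locus, on both strands. AP-1 motifs (TGANTCA) occurred in 9 of 39 member loci away from start sites (23.1%), against 33.4% of all such loci, and in 3 of 7 that were found in all 6 libraries (42.9%), against 46.1%. The SMAD box CAGAC occurred in 32.1% of member loci and 36.4% of all loci, and the palindromic SMAD motif GTCTAGAC in none and in 0.154%. The GC-rich SMAD motif GGCGCC was found in 8.93% and 7.44%, and the TEAD motif GGAATG in 19.6% and 15.8%. Away from start sites the SMAD box occurred in 28.2% of member loci and 37.5% of all loci. Every distal sequence printed above holds an AP-1 match, so the printed ones do not stand for all distal loci. These shares are descriptions, and a match of letters is not a binding site.

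The wider pathway was described with a list of 48 further genes covering ligands, receptors, SMADs and regulators, latency proteins and target genes. Of these, 39 had a promoter summit and 18 had one in all 6 libraries. In SAP30-KO1 cells 4 were higher without overlap and 3 were lower, or 4 and 3 of 39 beside the 6.01% and 4.58% of all genes given above. No gene passed the limma fit (lowest adjusted p = 0.482), and 3 of 32 fitted had an unadjusted p under 0.05, beside 7.76% of all genes fitted. The median difference was 0.478 points, against 0.671 points for all genes.

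Among ligands and their activators, BMP4, a bone morphogenetic protein, had ranks of 34.6, 37.1 and 41.9 in Parental cells and 81.0, 49.8 and 93.4 in SAP30-KO1 cells, a difference of 36.9 points. ITGB8, an integrin subunit that releases active TGF-β from its latent complex, had 79.3, 53.8 and 82.9 against 89.3, 85.3 and 85.3. Among receptors, TGFBR3, the coreceptor betaglycan, had 72.7, 69.3 and 77.9 against 89.8, 91.0 and 81.3. All SAP30-KO1 values of these genes exceeded all Parental values, with the smallest possible p of 0.1 by the exact permutation test. ACVR2A, an activin type II receptor, differed by 6.43 points in the same way. SMAD9, a SMAD of the BMP branch, had 30.8, 16.9 and 23.9 in Parental cells and 0, 5.16 and 0 in SAP30-KO1 cells. The target genes TGFBI, which encodes a matrix protein, and ID2, an inhibitor of basic helix-loop-helix factors, kept ranks above 90 in all libraries and differed by −4.59 and −2.79 points.

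**Figure D5:**
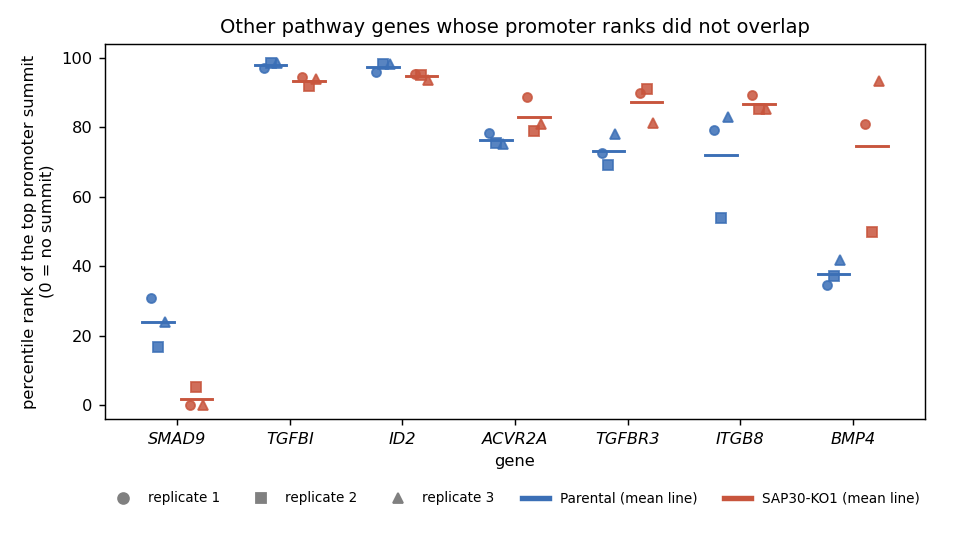
Percentile rank of the strongest promoter summit (y axis) in 3 Parental (blue) and 3 SAP30-KO1 (red) libraries for the listed pathway genes whose groups did not overlap (x axis, ordered by difference), with replicates as symbols and means as lines. The shift is widest for BMP4, 36.9 points, and small for TGFBI and ID2, whose 6 ranks all exceed 90.

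Further targets of the pathway had promoter summits that varied between libraries. CCN2, a matricellular protein gene, had 82.2, 87.2 and 24.8 against 26.9, 84.5 and 30.4. PMEPA1, a feedback inhibitor, had 26.5, 24.3 and 0 against 37.6, 34.0 and 23.2. In both genes the groups overlapped. No promoter summit was found for JUNB, IL11, CDKN2B, ENG, INHBB, BMP7, LTBP4, LRRC32 and ITGB6. Absence from a summit list does not show that a promoter is closed.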

How the data were processed

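ATAC-seq was performed in 3 Parental and 3 SAP30-KO1 libraries of MDA-MB-231 cells. According to the methods and processing notes, the authors trimmed single-end reads with Trim Galore 0.4.5, aligned them to hg19 with Bowtie2 2.3.3.1, used Picard to drop duplicates, and called peaks by MACS2 2.1.0 at a q value of 0.05. The deposited lists hold 1 summit per peak and its −log10 q value, called in each library separately. Transposase shifting and blacklist filtering are not given in the sources used here. Peak calls follow depth and signal quality, and scores of separate lists share no scale, so scores were ranked within each list.

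Summits were taken with GENCODE release 44 on GRCh37. Windows of 501 bp sharing 1 bp or more were joined into loci. Groups were set by the labels. Values were compared by non-overlap, by an exact permutation test (20 assignments, smallest p 0.1) and by limma 3.58.1 in R 4.3.3 with Benjamini-Hochberg adjustment at 0.05. The limma fit was also run on simulated ranks with normal noise. These lacked the bounds and the zeros of the real ranks, so the run does not cover how the fit handles them. Parental and SAP30-KO1 libraries of the same number were not treated as pairs, since the labels do not state a pairing. The deviations of same-numbered libraries correlated by −0.0305 to 0.0128. Members, lists and tests were chosen with earlier results of these data known. Named loci are promoter loci, the strongest distal locus of each gene and loci whose groups did not overlap. The other loci found in all 6 libraries, the second upstream locus of SMAD7 and the pathway targets described at the end were chosen after their values were seen.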

Additional observations from a re-analysis of the deposited data

How the results depend on the processing

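No member promoter or locus passed the limma fit under any setting tried, a replicate block included (0 member promoters and 0 member loci called). The block was run for these fits and for the promoter differences and changed no call at the adjusted threshold, while the 1 member locus with an unadjusted p under 0.05 was lost (0 with the block). Same-numbered libraries did not deviate together. Without one library in turn, the promoter difference ranged from −2.50 to 18.9 points for TGFB2, −1.22 to 2.43 for TGFBR1, −0.306 to 0.221 for TGFBR2, −5.60 to 22.8 for SMAD2, 7.72 to 26.7 for SMAD3, −1.53 to 13.8 for SMAD4, 7.79 to 46.6 for SMAD7 and −3.18 to 10.6 for SKIL, and with a promoter window of 2.5 kb that of SMAD3 was −0.132. Leaving out a library gave 0 to 1 member promoters, 1 to 4 lower loci, 1 to 9 higher loci and 1 to 3 regions whose groups did not overlap. It gave 0 to 1 loci in Parental libraries alone and 0 to 4 in SAP30-KO1 libraries alone. Fewer libraries separate more easily, and under the same omissions 5.49 to 9.28% of all loci were lower and 7.88 to 13.0% higher. For promoters, regions and loci of a single group, the share over all features was not taken under these omissions.

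The count of lower loci, 1, became 0 under the stricter q limit of 0.0001 and with 10 kb upstream, which leaves out the SMAD3 locus, and 2 with lists of equal length or ranks within a chromosome arm. The count of higher loci, 0, became 1 with windows of 100 bp on each side and with 100 kb upstream. The count of regions, 1, became 0 under the stricter q limit of 0.0001 and with equal lists, and 2 with 10 kb upstream, where SMAD4 joined SMAD3 (0.392 per 10000). Summits per 10000 changed sign for TGFB2 under that q limit (−0.0794), with 10 kb upstream for TGFBR1 (0.0129), SMAD2 (0.103) and SKIL (0.0129), and with 100 kb upstream for SMAD2 (0.0258). Without one library in turn they ranged from −0.115 to 0.0973 for TGFBR1, −0.179 to 0.374 for TGFBR2, −0.228 to 0.0450 for SMAD2 and 0.310 to 0.749 for SMAD3. For these changed settings, unlike the main one, the share over all loci or regions was not taken. The changed counts therefore have no background beside them. Except where named, the cause was not tested.

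The log2 scale of the score was run for TGFB2, TGFBR1, TGFBR2 and SKIL only, and TGFB1 had no promoter value under the main setting. Start sites were restricted to the canonical one after seeing the data, and SMAD7 then had no value, nor did it with start sites of protein-coding transcripts. With 3 libraries a group, unknown depth and summits in place of reads, differences smaller than the spread of ranks were not detectable.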

Other observations

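For the chromosome arms that carry the 9 genes, the shift of loci found in all 6 libraries was taken arm by arm. The median SAP30-KO1 minus Parental difference ranged from −0.472 points on 19q, the arm of TGFB1, to 2.19 points on 18q, the arm of SMAD2, SMAD4 and SMAD7, over 168 and 189 loci. It was 1.22 points on 3q (SKIL), 0.378 on 3p (TGFBR2), 0.236 on 9q (TGFBR1), 0.0814 on 15q (SMAD3) and −0.240 on 1q (TGFB2). The median over all loci found in all 6 libraries was 0.171 points. For the genes on 18q, ranks within the arm changed the promoter difference from 6.07 to 1.11 points for SMAD4. They changed it from 10.4 to 8.97 points for SMAD2 and from 29.5 to 31.2 points for SMAD7. A part of the arm in these differences was not tested.

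Among genes that hold TGF-β in its latent form, LTBP1, which encodes a latent TGF-β binding protein, had promoter ranks of 97.0, 97.3 and 98.3 in Parental cells and 99.0, 98.5 and 95.4 in SAP30-KO1 cells. The groups overlapped. LTBP2, LTBP3 and THBS1, which encodes thrombospondin 1, had a promoter summit in 1 or 2 libraries each. Among nuclear corepressors, TGIF1 ranked at 88.5, 92.2 and 85.1 against 86.7, 94.6 and 83.2, and SKI, the relative of SKIL, at 0, 64.5 and 8.78 against 6.37, 6.97 and 27.9. INHBA, which encodes an activin subunit, had a promoter summit in every library, with ranks of 88.5, 88.4 and 82.2 against 68.2, 94.9 and 90.5. For each of these genes the values of the groups overlapped, and they were chosen after their values were seen.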
